A study of Mus musculus with 6 samples.

Results

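A set of 10 genes that carry glucose into retinal cells, break it down to pyruvate, convert pyruvate to lactate and move lactate across membranes were followed by RNA sequencing in whole retina of saline- and microbead-injected mice. The genes were chosen by role and found by symbol in the deposited count table, where all 10 of 10 had a row among 31169 genes in all. They are the glucose carrier gene *Slc2a1*, the hexokinase genes *Hk1* and *Hk2*, the aldolase gene *Aldoc*, the enolase gene *Eno2*, the pyruvate kinase gene *Pkm*, the lactate dehydrogenase genes *Ldha* and *Ldhb*, and the monocarboxylate carrier genes *Slc16a1* and *Slc16a3*. C57BL/6 mice were injected into the anterior chamber at 1 month of age with 1 μl of saline (3 libraries) or of microbeads of 15 μm diameter, which raise intraocular pressure (IOP; 3 libraries), and retina was taken 4 weeks later, at 2 months of age. The volume is that of the labels, and the study's methods give a larger one. The labels name no transgene or deletion for either group. In the study's design both eyes of a mouse received the same injection, and the labels do not say which libraries came from separate animals, so that p-values measure the spread between these libraries.

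Retina, and above all its photoreceptors, turns much of its glucose into lactate even when oxygen is present, a state called aerobic glycolysis. Hexokinase traps glucose as glucose-6-phosphate, a chain of cytosolic enzymes carries it to pyruvate, and lactate dehydrogenase converts pyruvate and lactate into each other while it recycles NADH and NAD+. Lactate leaves or enters cells with a proton through monocarboxylate carriers (MCTs), among them MCT1, encoded by *Slc16a1*, and MCT4, encoded by *Slc16a3* and known from glycolytic cells that export lactate.

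The saline libraries held 36085737 to 46481382 counts and the microbead libraries 13574949 to 19834366, a 2.40-fold gap between the medians. In the sample descriptions, library names of the saline group come from one series and those of the microbead group from another. The sample titles share the same numbering across both groups. The effects of the series in the descriptions, the depth and the injection cannot be told apart. Counts on genes of the mitochondrial genome made up 3.19 to 3.57% of the saline and 8.90 to 10.6% of the microbead libraries. Rod genes, which define the most abundant retinal cell, summed, in counts-per-million units (CPM), to 68640 to 91330 CPM in saline and 61347 to 75690 CPM in microbead libraries, as fits the labelled tissue. Some saline libraries stood apart. Saline replicate 1 held 327 CPM of 8 ganglion cell marker genes while saline replicates 2 and 3 held 959 and 1236 CPM. It was also the lowest saline library in amacrine markers (981 beside 1549 and 1845 CPM) and Müller glia markers (4512 beside 5836 and 8671 CPM). In microglia markers it was the highest (168 beside 49.8 and 75.5 CPM). Saline replicate 3 held 359 CPM of 5 lens crystallin and fibre genes, saline replicates 1 and 2 held 28.4 and 0.933 CPM, and the microbead libraries at most 1.69 CPM, with 0 counts of *Crybb2* in each of them. Saline replicate 3 also held the largest sum of pigment epithelium markers, 192 CPM, where saline replicates 1 and 2 held 23.3 and 56.9 CPM and the microbead libraries 101 to 131 CPM.

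RNA of both lactate carriers was lower in retina of microbead-injected mice: *Slc16a3* fell by 51.0% and *Slc16a1* fell by 38.3%. *Hk2* fell by 42.2%, and these 3 genes passed edgeR's quasi-likelihood test at an adjusted p under 0.05. The other 7 genes did not pass the test, among them *Ldha* and *Slc2a1*, whose groups did not overlap, and *Pkm*, *Aldoc*, *Hk1*, *Eno2* and *Ldhb*, whose groups did. Of the 10 genes tested, 3 were thus called lower and 0 higher, while of all 17707 genes tested 6.31% were called lower, 6.46% higher and 12.8% in either direction. Groups did not overlap, with microbead below saline, for 5 of the 10 genes and for 18.9% of all tested genes, and with microbead above saline for 0 of the 10 and 18.8% of all. The median log2 fold change of the 10 genes was -0.42, beside -0.03 over all tested genes, and their CPM summed to 8545, 8001 and 9919 in the saline and 7801, 6302 and 7704 in the microbead libraries. In bulk retina, fewer cells of a type and less RNA per cell cannot be told apart.

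**Figure D1:**
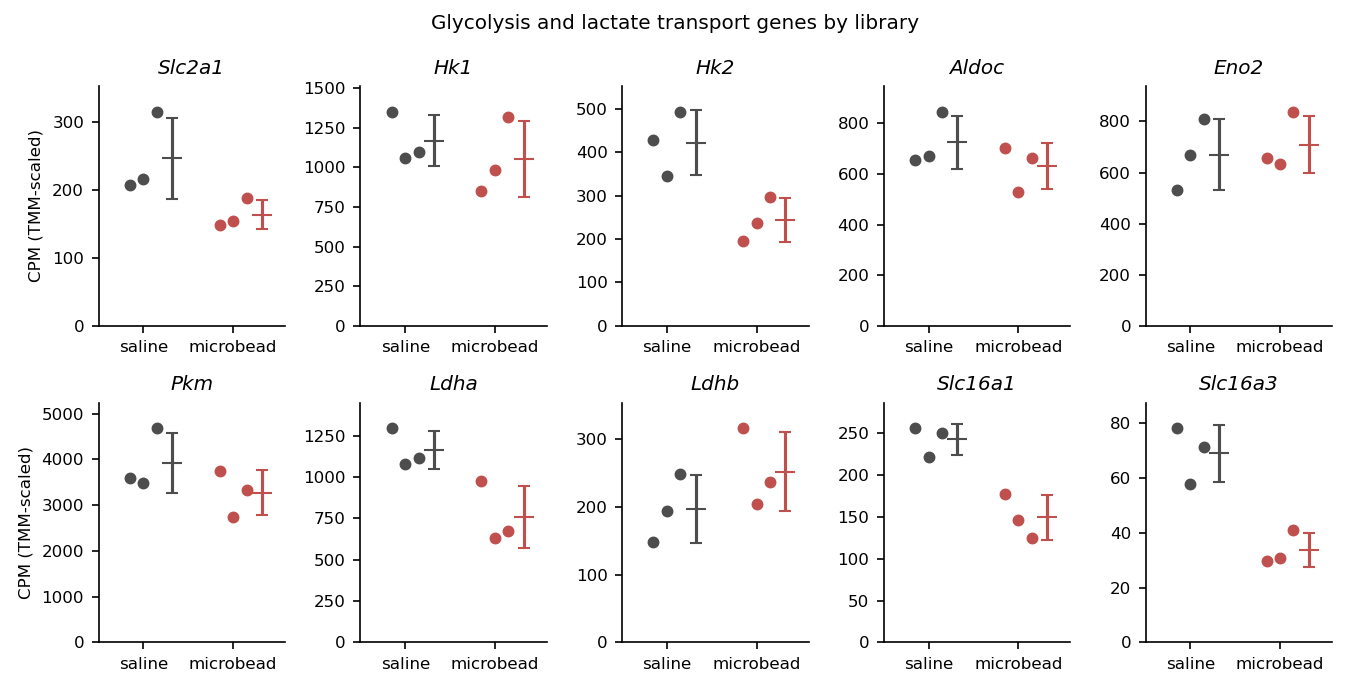
Level of each of the 10 genes in CPM (TMM-scaled library sizes, linear axis from 0), with a point for each library in the order of replicate numbers and, to the right of each group, the mean with its SD (n = 3). The microbead points of *Slc2a1*, *Hk2*, *Ldha*, *Slc16a1* and *Slc16a3* all lie under the saline points, and the groups of the other 5 genes overlap.

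The lactate carrier gene *Slc16a3* had the lowest adjusted p of the 10 genes. *Slc16a3* (ENSMUSG00000025161.16; GRCm38 chromosome 11, 120948480 to 120960868, forward strand) was measured at 78.3, 57.8 and 71.3 CPM in saline and at 29.8, 30.8 and 41.0 CPM in microbead libraries. Every microbead library lay under every saline library. Means were 69.1 ± 10.4 and 33.9 ± 6.19 CPM (SD, n = 3 each), a log2 fold change of -1.03 (standard error 0.20, adjusted p = 0.0170, edgeR). The lowest count of *Slc16a3* in a library was 427, with a counting error of 4.84%, smaller than the spread between libraries. Its adjusted p stayed under 0.05 in the 3 fits without a saline library and exceeded it in the 3 fits without a microbead library, up to 0.0668 without microbead replicate 3 (edgeR), with log2 fold changes from -1.20 to -0.93.

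*Slc16a1* (ENSMUSG00000032902.1; chromosome 3, 104638668 to 104658462, forward strand) was at 256, 222 and 251 CPM in saline and at 178, 147 and 124 CPM in microbead libraries. The saline libraries lay close together and the highest microbead library stayed under the lowest of them. Means were 243 ± 18.3 and 150 ± 26.9 CPM (SD, n = 3 each), a log2 fold change of -0.70 (standard error 0.18, adjusted p = 0.0390, edgeR). Dropping single libraries gave log2 fold changes from -0.84 to -0.59, and 1 of 6 such fits passed the threshold (0.0462 to 0.142, edgeR), the fit without microbead replicate 1.

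Among proteins that work with these carriers, *Bsg*, which encodes the chaperone basigin that brings MCT1 and MCT4 to the membrane, did not pass the test (log2 fold change -0.08, adjusted p = 0.822, edgeR). *Slc16a7*, which encodes the neuronal carrier MCT2, had a log2 fold change of 0.03 and *Slc16a8*, which encodes MCT3 of the pigment epithelium, of -0.49, and neither passed (adjusted p = 0.959 and 0.629, edgeR). *Slc16a8* was at 11.1 CPM in saline replicate 3, the library with the most pigment epithelium RNA, and at 1.86 to 4.69 CPM in the other 5 libraries. Of the list of 10 further glucose and monocarboxylate carriers and their partners, 1 of 10 tested was called, *Slc2a3*, lower, or 10% beside 12.8% of all tested genes.

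*Slc2a1* (ENSMUSG00000028645.11; chromosome 4, 119108711 to 119137983, forward strand) encodes GLUT1, the glucose carrier of the blood-retina barrier, glia and photoreceptors. It was at 207, 216 and 314 CPM in saline and at 148, 154 and 188 CPM in microbead libraries. The groups did not overlap, but saline replicate 3 lay far above the other saline libraries. The means were 246 ± 59.6 and 163 ± 21.3 CPM (SD, n = 3 each), and the log2 fold change of -0.59 (standard error 0.21, 95% interval -1.06 to -0.12) did not pass adjustment over all genes (adjusted p = 0.0885, edgeR). Without saline replicate 3 it was -0.37. Endothelial marker genes, of the cells in which GLUT1 is abundant, summed to 453 to 650 CPM in saline and 278 to 424 CPM in microbead libraries without overlap. Of these 7 genes 4 were called lower and 0 higher (57.1% called), beside 6.31% lower and 6.46% higher of all tested genes. *Kdr*, the largest part of the sum, overlapped between the groups (adjusted p = 0.199, edgeR), and *Pecam1* and *Cdh5* overlapped and were not called either. All 7 had counts in every library, and their part in the value of *Slc2a1* was not tested. The neuronal glucose carrier gene *Slc2a3* (GLUT3) fell from 117 ± 16.0 to 58.2 ± 3.65 CPM (SD, n = 3 each; 2.01-fold lower, adjusted p = 0.0143, edgeR).

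Of the hexokinase genes, *Hk2* was called and *Hk1* was not. *Hk2* (ENSMUSG00000000628.10; chromosome 6, 82725025 to 82774454, reverse strand), the hexokinase that photoreceptors are known for, was at 427, 344 and 493 CPM in saline and at 196, 238 and 297 CPM in microbead libraries. Each microbead library was under each saline library, with a gap smaller than the range within either group. Means of 422 ± 74.6 and 244 ± 50.6 CPM (SD, n = 3 each) gave a log2 fold change of -0.79 (standard error 0.21, adjusted p = 0.0416, edgeR). It stayed between -0.97 and -0.66 with each library left out, but 0 of these 6 fits passed the threshold (adjusted p from 0.0557 to 0.120, edgeR; all 6 libraries, unadjusted p = 0.00433).

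*Hk1* (ENSMUSG00000037012.18; chromosome 10, 62268855 to 62379908, reverse strand), the hexokinase found throughout the retina and brain, was at 1352, 1058 and 1095 CPM in saline and at 851, 987 and 1320 CPM in microbead libraries. The groups overlapped widely, since microbead replicate 3 lay near the highest saline library. Its log2 fold change was -0.15 (standard error 0.21, 95% interval -0.63 to 0.32, adjusted p = 0.666, edgeR). An annotated antisense gene, *Hk1os*, overlaps 23112 bases of *Hk1* on the opposite strand. It had 17 to 47 counts in saline and 46 to 74 counts in the shallower microbead libraries, and rose by a log2 fold change of 2.21 (standard error 0.45, adjusted p = 0.0190, edgeR). The kit marks strand, but the strand setting used in counting is not given in the sources used here, so reads of *Hk1* and *Hk1os* may not have been told apart. *Hk1os* is outside the 10 genes and was chosen after its values were seen.

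Set against each other within a library, where scaling and gene length play no part in the change, the log2 ratio of *Hk2* to *Hk1* counts was -1.66, -1.62 and -1.15 in saline and -2.12, -2.05 and -2.15 in microbead libraries. The microbead libraries lay close together and under all saline libraries. Means were -1.48 ± 0.28 and -2.11 ± 0.05 (SD, n = 3 each), a difference of -0.63 (exact permutation over libraries, two-sided p = 0.1, which 3 libraries against 3 cannot go below; 0.125 adjusted over 5 gene pairs). Per exon length, *Hk2* made up 34.0 ± 4.48% of both hexokinase genes in saline and 24.9 ± 0.67% in microbead libraries (SD, n = 3 each).

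Stretches of sequence just before RefSeq start sites are shown here for the 3 called genes. Hypoxia-inducible factor (HIF), of which *Hk2* and *Slc16a3* are textbook targets, binds the core letters ACGTG or GCGTG. Each run holds the 250 bases upstream of a RefSeq start site (GRCm38.p6, read along the gene's strand), and capitals mark each place where the letters ACGTG or GCGTG, or either read on the other strand, occur. The run of *Slc16a3* lies at chr11:120948817-120949066 on the forward strand, that of *Slc16a1* at chr3:104638414-104638663 on the forward strand and that of *Hk2* at chr6:82774455-82774704 on the reverse strand. That of *Slc16a3* falls inside the gene span given above, which starts further upstream, and those of *Slc16a1* and *Hk2* lie outside theirs.
Slc16a3: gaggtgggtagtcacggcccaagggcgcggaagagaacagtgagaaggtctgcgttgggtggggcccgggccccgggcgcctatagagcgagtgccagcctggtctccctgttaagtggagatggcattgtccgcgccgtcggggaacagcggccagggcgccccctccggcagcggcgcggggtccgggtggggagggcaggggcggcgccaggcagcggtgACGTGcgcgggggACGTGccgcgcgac
Slc16a1: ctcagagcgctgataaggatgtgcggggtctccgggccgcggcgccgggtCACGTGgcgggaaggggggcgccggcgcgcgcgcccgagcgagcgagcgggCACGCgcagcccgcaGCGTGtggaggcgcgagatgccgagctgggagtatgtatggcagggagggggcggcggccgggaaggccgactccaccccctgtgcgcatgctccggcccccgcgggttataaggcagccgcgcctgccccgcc
Hk2: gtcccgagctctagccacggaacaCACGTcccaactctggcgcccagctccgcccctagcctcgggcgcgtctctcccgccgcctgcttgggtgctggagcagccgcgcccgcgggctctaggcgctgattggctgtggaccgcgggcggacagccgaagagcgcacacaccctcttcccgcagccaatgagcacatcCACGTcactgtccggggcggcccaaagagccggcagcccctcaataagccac
*Slc16a3* held ACGTG at 2 places, *Hk2* at 2 places, and *Slc16a1* held ACGTG at 1 place, inside the palindrome CACGTG that reads the same on either strand, and GCGTG at 2. All 10 genes had an entry, with 14 start sites between them, and 11 of the 14 upstream runs held ACGTG or GCGTG, as did 38.6% of the 32851 start sites in the RefSeq table. The run of *Eno2*, 1 run of *Hk1* and 1 run of *Pkm* held none. CACGTG was in 2 of the 14 runs, of *Slc16a1* and *Ldha*, and in 6.02% of all. *Ldha*, which was not called, held CACGTG at 2 places in 1 run and, apart from these, ACGTG read on the other strand. A match of letters is a description of the sequence and not a binding site. Whether HIF had a part in the changes of these genes was not tested.

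The lactate dehydrogenase genes pointed in opposite directions, although neither passed the test alone. *Ldha* (ENSMUSG00000063229.15; chromosome 7, 46841475 to 46855627, forward strand) encodes the subunit known for making lactate from pyruvate. It was at 1295, 1079 and 1112 CPM in saline and at 974, 631 and 673 CPM in microbead libraries. The groups did not overlap, and microbead replicate 1 came near the saline range. For *Ldha* the log2 fold change was -0.61 (standard error 0.21, 95% interval -1.09 to -0.14, adjusted p = 0.0815, edgeR), and in 2 of 8 alternatives with all 6 libraries it passed: 0.0374 with DESeq2, which called 20.2% of all genes, and 0.0457 without the filter on low counts (edgeR).

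*Ldhb* (ENSMUSG00000030246.11; chromosome 6, 142490249 to 142507957, reverse strand), whose subunit is known from tissues that use lactate, was at 148, 194 and 248 CPM in saline and at 316, 204 and 236 CPM in microbead libraries. The groups overlapped, with the lowest level in saline replicate 1, the library low in ganglion cell and amacrine marker RNA, and the highest in microbead replicate 1. On the log2 scale its fold change was 0.36 (standard error 0.24, 95% interval -0.17 to 0.89, adjusted p = 0.334, edgeR), and 0.19 without saline replicate 1. The part of ganglion cell RNA in it was not tested.

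The log2 ratio of *Ldhb* to *Ldha* counts was -3.13, -2.47 and -2.17 in saline and -1.62, -1.63 and -1.51 in microbead libraries. All microbead libraries lay above all saline libraries, and the spread among saline libraries was several times that among microbead libraries. The means of -2.59 ± 0.49 and -1.59 ± 0.07 (SD, n = 3 each) differed by 1.00, a 2.00-fold higher ratio after microbead injection (two-sided exact permutation test, p = 0.1, adjusted p = 0.125). Without any 1 library the difference was 0.73 to 1.21. Per exon length, *Ldhb* made up 26.3 ± 6.35% of both genes in saline and 41.2 ± 1.13% in microbead libraries (SD, n = 3 each).

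**Figure D2:**
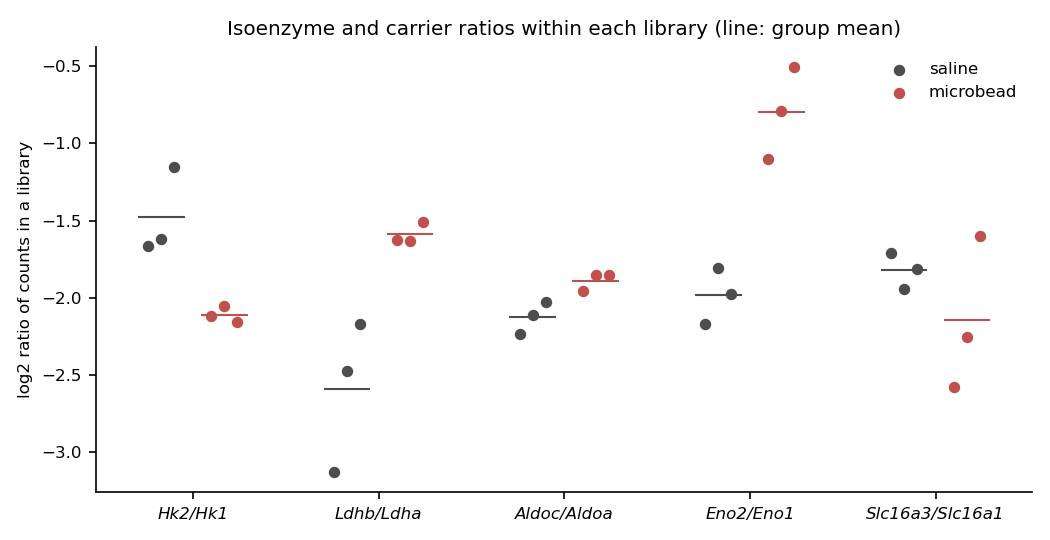
Log2 ratio of the counts of a pair of genes of the same step within each library, for 5 pairs, with a point for each library and a line at the group mean (n = 3). The groups do not overlap for *Hk2* to *Hk1*, *Ldhb* to *Ldha*, *Aldoc* to *Aldoa* and *Eno2* to *Eno1*, and overlap for *Slc16a3* to *Slc16a1*.

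The enolase gene *Eno2* (ENSMUSG00000004267.16; chromosome 6, 124760053 to 124769673, reverse strand), the neuron-specific enolase that is abundant in ganglion cells, was at 532, 669 and 809 CPM in saline and at 659, 632 and 838 CPM in microbead libraries. The groups overlapped throughout. The log2 fold change was 0.08 (standard error 0.21, 95% interval -0.39 to 0.55, adjusted p = 0.820, edgeR). It was -0.06 without saline replicate 1, the library with the least *Eno2* and the least ganglion cell and amacrine marker RNA, and also -0.06 without microbead replicate 3. Over all 6 libraries the sum of the ganglion cell markers ran from 327 to 1236 CPM in saline and from 823 to 1104 CPM in microbead libraries, with 0 of 8 called and each of them detected in every library, and its part in *Eno2* was not tested.

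Its general counterpart *Eno1*, the enolase of most cells, was called lower. It was at 2386, 2340 and 3176 CPM in saline and at 1411, 1094 and 1191 CPM in microbead libraries, without overlap, and fell by 1.10 on the log2 scale (standard error 0.20, adjusted p = 0.0158, edgeR). The log2 ratio of *Eno2* to *Eno1* was -2.17, -1.81 and -1.97 in saline and -1.10, -0.79 and -0.51 in microbead libraries. The groups did not overlap. The difference of 1.18, a 2.27-fold higher ratio, ran from 1.04 to 1.33 with each library left out (two-sided exact permutation test, p = 0.1, adjusted p = 0.125). *Eno1* shares 20.4% of its 100-base transcript stretches with other loci, whereas *Eno2* shares 0%. The loci that share them had few counts beside *Eno1*, whose lowest count was 15152: the retrogene *Eno1b* had at most 82 and the pseudogene *Gm4735* at most 173. The pseudogene *Gm5855*, with 336, 323 and 392 counts in saline and 4, 1 and 7 in microbead libraries, fell as well (-5.16, standard error 0.52, adjusted p = 0.00289, edgeR). What part reads of these loci had in the value of *Eno1* was not tested.

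*Aldoc* (ENSMUSG00000017390.15; chromosome 11, 78322968 to 78327781, forward strand), the aldolase of glia and of many neurons, was at 657, 671 and 846 CPM in saline and at 702, 529 and 663 CPM in microbead libraries. The groups overlapped, and the log2 fold change was -0.20 (standard error 0.19, 95% interval -0.63 to 0.23, adjusted p = 0.514, edgeR). The ratio to its ubiquitous counterpart *Aldoa* was higher in each microbead library than in any saline library, by a small difference of 0.24 (two-sided exact permutation test, p = 0.1, adjusted p = 0.125), between means of -2.12 ± 0.10 and -1.89 ± 0.06 (SD, n = 3 each). *Aldoa* itself had a log2 fold change of -0.42 (adjusted p = 0.172, edgeR).

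The gene *Pkm* (ENSMUSG00000032294.17; chromosome 9, 59656368 to 59679375, forward strand) encodes the pyruvate kinase isoforms PKM1 and PKM2, which a count per gene cannot separate. It was at 3593, 3490 and 4680 CPM in saline and at 3747, 2750 and 3324 CPM in microbead libraries. Saline replicate 3 was the highest and the groups otherwise overlapped. The log2 fold change was -0.26 (standard error 0.20, 95% interval -0.72 to 0.20, adjusted p = 0.418, edgeR). Of its 100-base stretches 12.3% occur in other loci, among them the pseudogene *Gm6560*, which had 1080 to 1264 counts in saline and 108 to 204 in microbead libraries beside at least 38079 of *Pkm*, and which fell by 1.60 on the log2 scale (adjusted p = 0.0110, edgeR). Stretches shared by the other 9 genes ranged from 0%, for *Slc16a1*, *Slc16a3*, *Hk2*, *Aldoc* and *Eno2*, to 6.44%, for *Ldhb*. *Ldha* shared 0.590%, in part with the pseudogene *Ldha-ps2*, and had at least 8736 counts in each library. *Ldha-ps2* had 39, 51 and 67 counts in saline and 1 in each microbead library (log2 fold change -4.33, adjusted p = 0.0113, edgeR). Its part in the value of *Ldha* was not tested.

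The carriers were the pair whose ratio overlapped between the groups. In the other pairs the groups did not overlap, but none passed (two-sided exact permutation test, adjusted p = 0.125). How often ratios of other gene pairs do not overlap was not tested. The log2 ratio of *Slc16a3* to *Slc16a1* was -1.71, -1.94 and -1.81 in saline and -2.58, -2.25 and -1.60 in microbead libraries. Microbead replicate 3 lay above and the other microbead libraries under the saline range, and the difference of -0.32 was within that spread (two-sided exact permutation test, p = 0.4, adjusted p = 0.4).

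Per exon length, the levels kept a wide range. In saline libraries *Pkm* led with 784 CPM per kilobase of exon, followed by *Ldha* with 351, *Aldoc* with 222, *Eno2* with 142, *Hk1* with 137, *Ldhb* with 125, *Hk2* with 70.6, *Slc2a1* with 70.1, *Slc16a1* with 54.9 and *Slc16a3* with 13.0. *Eno2*, *Hk1* and *Ldhb* overlapped as neighbours in this order, and so did *Hk2* and *Slc2a1*, while the other neighbours did not. In microbead libraries *Pkm*, *Ldha* and *Aldoc* had the highest means, 655, 229 and 194 CPM per kilobase, followed by *Ldhb* with 160. There the libraries of *Ldha* and *Aldoc* overlapped, and those of *Aldoc* overlapped with those of *Ldhb* and *Eno2*.

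Along the remaining route from glucose to pyruvate the changes were uneven. Of 18 other glycolytic enzyme genes tested, of 20 listed, 4 were called lower, 1 higher and 13 not called, or 27.8% called beside 12.8% of all tested genes, with a median log2 fold change of -0.27. *Pgk1*, which encodes the first ATP-making enzyme of the pathway, phosphoglycerate kinase, fell from 525 ± 70.7 to 171 ± 42.7 CPM (log2 fold change -1.62, standard error 0.22, adjusted p = 0.00794). *Pgam1*, for phosphoglycerate mutase, fell from 335 ± 55.0 to 119 ± 4.66 CPM (-1.49, standard error 0.18, adjusted p = 0.00534). *Pfkl*, for the liver-type subunit of phosphofructokinase, fell from 543 ± 44.0 to 304 ± 15.1 CPM (-0.84, standard error 0.16, adjusted p = 0.0175). The muscle enolase gene *Eno3* rose from 15.7 ± 5.40 to 30.0 ± 4.26 CPM (0.94, standard error 0.26, adjusted p = 0.0469; SD, n = 3 each, and edgeR for all 4 genes). *Pgk1*, *Pgam1* and *Eno1* encode enzymes of consecutive steps, and the genes of the steps just before and after them, *Gapdh* (0.05) and *Pkm*, did not pass.

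Some of these genes share sequence with pseudogenes. *Pgk1* shares 51.7% and *Pgam1* 33.9% of its 100-base stretches with other loci, *Gapdh* shares 20.9%, and *Pfkl* shares 0%. The listed pseudogenes of *Pgk1* had at most 12 counts, beside at least 2114 of *Pgk1*, and those of *Pgam1* at most 82, beside at least 1577 of *Pgam1*. *Pgam1-ps1* and *Pgam1-ps2* had log2 fold changes of -2.07 and -1.31, and neither passed (adjusted p = 0.0580 and 0.0913, edgeR). *Gm5537* had 3 to 6 counts in saline and 0 in microbead libraries, and *Pgk1-rs7* had 2 to 7 and 3 to 12. These counts do not show how many reads were dropped for fitting several loci. Whether reads that fit several loci had a part in these falls was not tested.

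**Figure D3:**
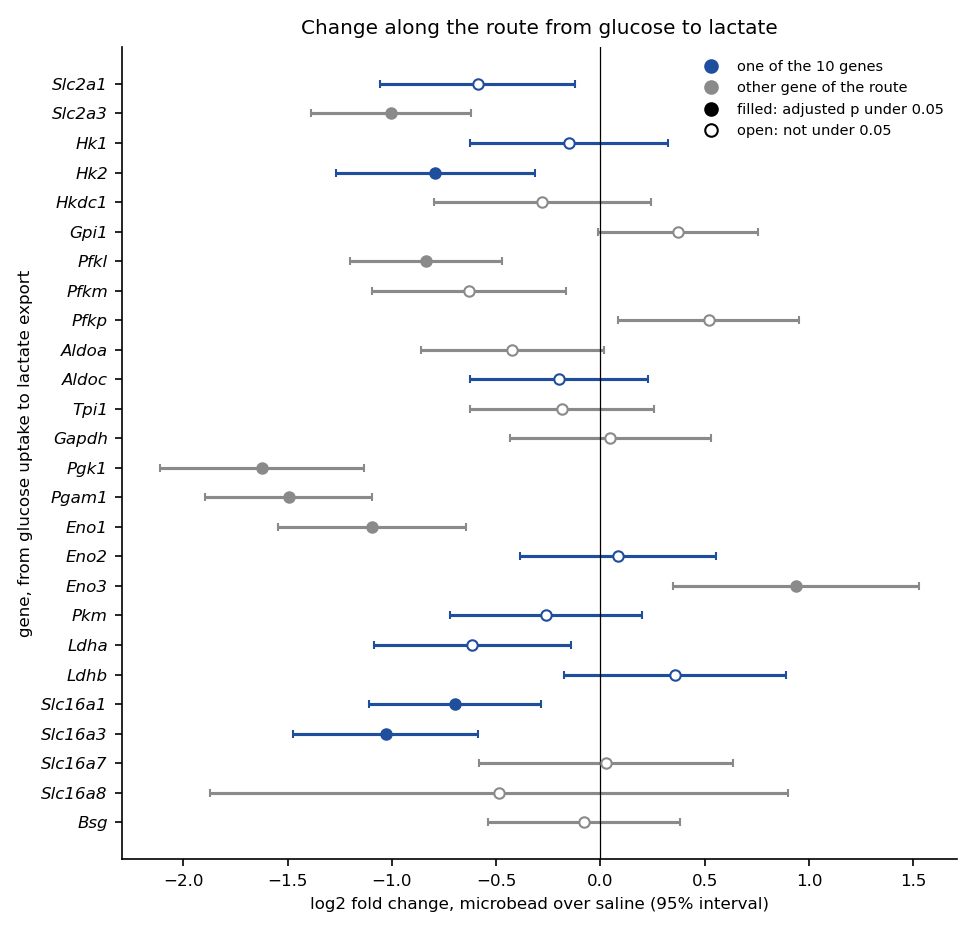
Log2 fold change, microbead over saline, with its 95% interval from edgeR for the 10 genes (blue) and other genes of the route (grey), ordered from glucose uptake to lactate export. Filled points had an adjusted p under 0.05, and the lowest value is that of *Pgk1* (-1.62).

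Pathways that branch from glycolysis or take up its products held calls in both directions. Of 14 genes that bring pyruvate into mitochondria and oxidize it, 2 were called lower and 1 higher, or 21.4% beside 12.8% of all tested genes. *Pdk1*, a kinase that shuts pyruvate dehydrogenase, fell by 0.95 on the log2 scale (adjusted p = 0.0178, edgeR). The partner genes of the mitochondrial pyruvate carrier went apart, *Mpc1* rising by a log2 fold change of 0.76 and *Mpc2* falling by 0.59 (adjusted p = 0.0415 and 0.0470, edgeR). Both lost their call in each of the 6 fits without a library (adjusted p from 0.0594 to 0.113 for *Mpc1* and from 0.0524 to 0.147 for *Mpc2*, edgeR). *Mpc2* also lost it under RLE and upper-quartile scaling, with mitochondrial genes left out of library sizes and with limma-voom, at an adjusted p of 0.0535 to 0.0592. Of 10 genes of the shuttles that carry cytosolic NADH electrons into mitochondria, 2 were lower and 0 higher (20% called), namely the oxoglutarate carrier gene *Slc25a11* (-0.90, adjusted p = 0.0175, edgeR) and the glycerol phosphate dehydrogenase gene *Gpd2* (-0.78, adjusted p = 0.0458, edgeR). *Gpd2* did not pass under the same 4 alternatives (adjusted p from 0.0501 to 0.0576). Of 9 glycogen genes tested 22.2% were called. The brain glycogen phosphorylase gene *Pygb* fell (-1.07, adjusted p = 0.0180, edgeR) and *Pgm1* (ENSMUSG00000029171.12) rose (1.03, adjusted p = 0.0400, edgeR). *Pgm1* had means of 6.59 CPM in saline and 13.5 CPM in microbead libraries. *Pgm2* (ENSMUSG00000025791.18), at 89.7 and 60.4 CPM, changed by -0.57 on the log2 scale and did not pass (adjusted p = 0.0772, edgeR). *Gpd2*, *Pgm1* and the enolase gene *Eno3* each passed in 1 of the 6 fits without a library.

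The pentose phosphate pathway and the enzymes that set fructose-2,6-bisphosphate held no call. None of the 7 pentose phosphate genes passed the test, and the values furthest from 0 were those of *Taldo1* (-0.50, adjusted p = 0.108, edgeR) and *Rpe* (-0.32, adjusted p = 0.297, edgeR). Of the 5 genes of the other list, *Pfkfb1* to *Pfkfb4* and *Tigar*, 0 passed, with *Pfkfb1* at 0.90 (adjusted p = 0.132, edgeR) and *Tigar* at 0.36 (adjusted p = 0.157, edgeR).

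Genes of the hypoxia pathway, which drives many glycolytic genes in low oxygen, were mostly not called. Of 15 tested, 2 were called lower, 0 higher and 13 not called, or 13.3% beside 12.8% of all tested genes. Those called were *Vhl*, which encodes the protein that marks HIF for degradation (-0.88, adjusted p = 0.0181, edgeR), and the stress-induced gene *Ddit4* (-0.91, adjusted p = 0.0186, edgeR). *Hif1a* had a log2 fold change of -0.28 and the growth factor gene *Vegfa* of 0.48, and neither passed (adjusted p = 0.397 and 0.115, edgeR). Of the 15 tested, 11 had a negative and 4, *Vegfa* among them, a positive log2 fold change. Their median was -0.22, beside -0.03 over all tested genes.

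Calls among cell type markers are given beside the 12.8% called among all tested genes. Rod marker sums overlapped between the groups, and of 10 rod genes 1 was called higher and 1 lower (20% called). Of 10 Müller glia genes, 3 were called lower and 0 higher (30%), with sums of 4512 to 8671 CPM in saline and 4253 to 4950 CPM in microbead libraries, and each was detected in every library. Of 8 cone genes 1 was called higher and 0 lower (12.5%). Pericyte genes summed to 120 to 191 CPM in saline and 97.5 to 156 CPM in microbead libraries with 1 of 4 called lower, and those of red cells to 16.1 to 41.6 and 10.9 to 38.9 CPM with 0 of 5 called. Of 4 astrocyte genes 1 was called lower, and 0 of the 8 ganglion cell, 6 bipolar, 6 amacrine, 6 microglia and 8 pigment epithelium genes were called (edgeR, at an adjusted p under 0.05). Among the sums of 13 marker lists, that of the endothelial genes was alone in not overlapping between the groups. The part of the glial and vascular markers in the changes of *Slc16a1*, *Slc16a3* and *Hk2* was not tested.

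The values of the 10 genes kept their sign with each library left out, apart from *Eno2*, but few kept their call. Of the 3 called genes, *Slc16a3* passed in 3 of the 6 fits, *Slc16a1* in 1 and *Hk2* in 0. Calls over the whole table moved as well: 15.1% of tested genes were called without saline replicate 1, 1.68% without saline replicate 2 and 8.42% without saline replicate 3. Leaving out microbead replicate 1 gave 3.89%, leaving out microbead replicate 2 gave 4.01% and leaving out microbead replicate 3 gave 0.238%. Of the 8 further pathway lists, which held 15 calls with all libraries, 0 genes were called when microbead replicate 3 was left out, 4 when it was microbead replicate 2, 7 when it was microbead replicate 1 and 3 when it was saline replicate 2. With all 6 libraries, calls over the whole table were 12.6% under RLE scaling, 12.5% under upper-quartile scaling, 12.6% with library sizes that leave out mitochondrial genes, 11.9% without a filter on low counts, 15% where each library had to hold 10 or more counts, 20.2% by DESeq2, 12.5% by limma-voom, 5.11% with the replicate number as a block and 0.491% at an adjusted p under 0.01.

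**Figure D4:**
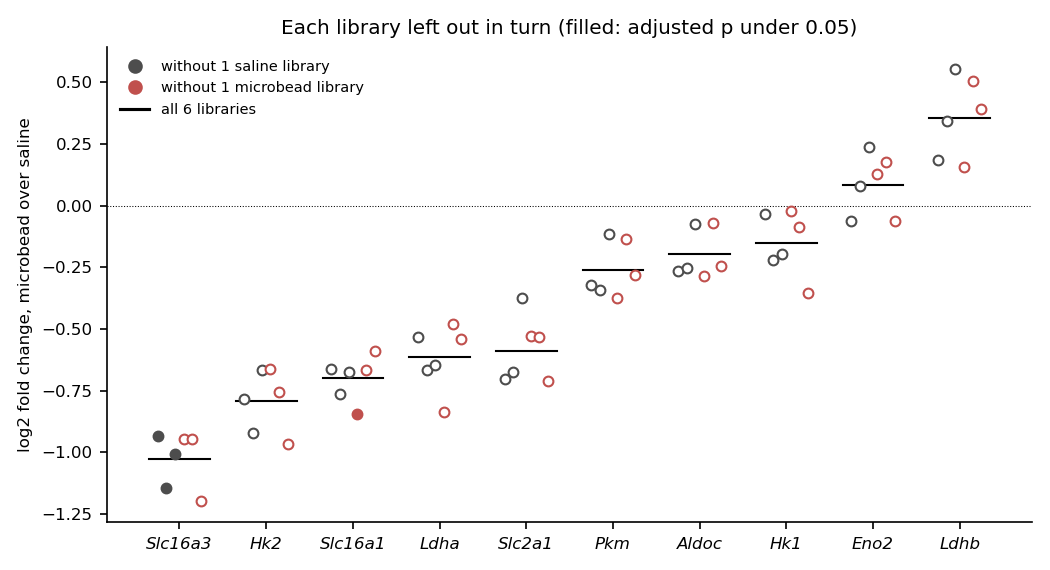
Log2 fold change of each of the 10 genes with each library left out in turn (points; filled where the adjusted p from edgeR was under 0.05) and with all 6 libraries (line). *Slc16a3* stays between -1.20 and -0.93, and the points of *Eno2* lie on both sides of 0.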

How the data were processed

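Libraries of poly(A) RNA came from whole retina of 3 saline- and 3 microbead-injected samples, grouped by the treatment in the sample records. The authors aligned reads with STAR 2.5.3a to GRCm38.p5 with GENCODE annotation and counted them per gene with featureCounts 1.15.2. The deposited counts are not normalized, and replicates were not pooled. The handling of multi-mapping reads and the strand setting are not given in the sources used here. The same table holds results of the authors' DESeq2 1.14 comparison, which were not used.

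The filter filterByExpr (minimum count 10, minimum total 15) kept 17707 genes. After TMM scaling, groups were compared on all of them by the quasi-likelihood test of edgeR 4.0.16 (R 4.3.3; two-sided). P-values were adjusted by Benjamini-Hochberg, and genes with an adjusted p under 0.05 were called. Intervals are 95% intervals of the log2 fold change. At the smallest library, 3 counts are 0.217 CPM. Ratios of gene pairs were compared by exact permutation over libraries. Exon lengths, positions and shared 100-base stretches came from GENCODE vM21. Steps were tested on simulated data. The alternatives were DESeq2 1.42.0, limma-voom (limma 3.58.1), RLE scaling, upper-quartile scaling, mitochondrial genes left out of library sizes, a filter of 10 counts per library or none, the replicate number as a block, an adjusted p under 0.01, 1 count added before ratios, and each library left out.

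The 10 genes, the lists and the alternatives were chosen with earlier results of these data known. Named were the 10 genes, *Aldoa* and *Eno1*, and in each list the called genes, at most 4, or the 2 largest changes. *Bsg*, *Slc16a7*, *Slc16a8*, *Gapdh*, *Pgm2*, *Hif1a*, *Vegfa*, *Hk1os* and the pseudogenes were chosen after their values were seen. No library was a copy of another: within groups, chi-square per degree of freedom was 22.0 or more.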

Additional observations from a re-analysis of the deposited data

How the results depend on the processing

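Of the 10 genes, 3 were called with edgeR. The count was also 3 with RLE or upper-quartile scaling, library sizes without mitochondrial genes, at least 10 counts in every library or limma-voom, where 12.5 to 15% of all genes were called. It was 4 with DESeq2 (20.2% of all genes) and 5 without the filter on low counts (11.9%). With the replicate number as a block it was 1 (5.11%), and at an adjusted p under 0.01 it was 0 (0.491%). With each library left out it ran from 0 to 1, while 0.238 to 15.1% of all genes were called. Calls over the 8 further lists numbered 15, were 23 without the filter on low counts and 9 with the replicate block, and ran from 0 to 15 with each library left out. Without the filter on low counts the median log2 fold change of all genes was -0.23, and -0.03 with it. The log2 fold change of *Eno2* ran from -0.06 to 0.24 with each library left out, and was -0.0611 without saline replicate 1 and -0.0632 without microbead replicate 3. Leaving out a library cannot reverse the direction of a ratio whose groups do not overlap. The replicate block leaves the difference of a ratio as it was. The 5 ratios kept their direction in all alternatives. Their differences ran from -0.72 to -0.47 for *Hk2* over *Hk1*, 0.73 to 1.21 for *Ldhb* over *Ldha*, 0.18 to 0.28 for *Aldoc* over *Aldoa*, 1.04 to 1.33 for *Eno2* over *Eno1* and -0.59 to -0.11 for *Slc16a3* over *Slc16a1* with each library left out. The replicate numbers did not pair the libraries: deviations of libraries with the same number correlated at -0.02, 0.17 and 0.01 over genes, and not every library correlated best with its own number. With the replicate block, the adjusted p from edgeR was 0.0424 for *Slc16a3*, 0.0576 for *Hk2* and 0.0636 for *Slc16a1*. The cause of these shifts was not tested. Fits without 1 library hold 5 libraries and tested other numbers of genes.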
